A study of Mus musculus with 12 samples.

Results

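Immediate early genes are a small set of genes switched on within minutes of a stimulus, without new protein synthesis. Here they are 10 genes, Fos, Fosb, Jun, Junb, Egr1, Atf3, Btg2, Ier2, Dusp1 and Zfp36, chosen by name from the 18193 genes that the arrays represent, together with all 12 probe sets annotated to exactly 1 of them. The samples were cardiac ventricles of mouse embryos at embryonic day 16.5, with 3 biological replicates of each of 4 genotypes on 12 Affymetrix arrays. The genotypes were wild type, Hdac2-null (a knockout of a class I histone deacetylase), Hopx-null (a knockout of a homeodomain protein of the heart) and double-null, a knockout of both genes. The sources used here give neither the alleles, any Cre driver and the strain nor the time from dissection to lysis. The comparison of interest was genotype against the differences between arrays of 1 genotype, since these transcripts also respond to the handling of tissue.

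In unstimulated cells the promoters of these genes are already open, and a pulse of growth factor, calcium, stretch, heat or injury acts on bound or latent factors such as SRF with its Elk partners and CREB. Fos and Jun proteins pair as the AP-1 transcription factor, Egr1 is a zinc finger activator, and Atf3 is a stress-induced factor of the ATF family. Dusp1, Zfp36 and Btg2 close the response: Dusp1 is a phosphatase that switches off MAP kinases, Zfp36 (tristetraprolin) speeds the decay of AU-rich mRNAs, and Btg2 is an antiproliferative protein that recruits the deadenylase complex. Tissue dissection alone is known to induce them.

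The sequence just upstream of the start is shown for 4 members, because between them they hold each kind of response element that the search found: cAMP response element letters in Fos, Btg2 and Dusp1, a TATA box in Fos, a CArG box in Zfp36 and EGR sites in Btg2 and Zfp36. Promoters were found in the RefSeq table (GRCm38.p6) for 8 of the 10 members, and each is the 250 bases before the annotated start, 5′ to 3′ on the gene's strand. The windows are chr12:85473640-85473889 on the + strand for Fos, chr1:134079156-134079405 on the - strand for Btg2, chr17:26508473-26508722 on the - strand for Dusp1 and chr7:28379229-28379478 on the - strand for Zfp36. Capitals mark matches to the searched motifs.
Fos: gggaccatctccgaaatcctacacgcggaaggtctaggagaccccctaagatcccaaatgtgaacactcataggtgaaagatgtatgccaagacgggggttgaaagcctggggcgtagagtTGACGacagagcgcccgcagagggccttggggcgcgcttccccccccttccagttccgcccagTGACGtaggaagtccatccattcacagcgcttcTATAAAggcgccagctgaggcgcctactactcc
Btg2: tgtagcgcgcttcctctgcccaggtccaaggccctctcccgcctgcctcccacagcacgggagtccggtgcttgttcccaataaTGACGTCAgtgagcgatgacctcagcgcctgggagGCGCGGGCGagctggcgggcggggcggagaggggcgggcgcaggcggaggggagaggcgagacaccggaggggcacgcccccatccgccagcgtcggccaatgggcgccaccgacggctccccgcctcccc
Dusp1: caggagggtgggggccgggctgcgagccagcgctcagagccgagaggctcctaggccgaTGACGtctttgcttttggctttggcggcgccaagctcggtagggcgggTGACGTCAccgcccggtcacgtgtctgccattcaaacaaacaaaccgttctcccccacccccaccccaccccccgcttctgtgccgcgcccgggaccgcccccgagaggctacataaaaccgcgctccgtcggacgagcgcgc
Zfp36: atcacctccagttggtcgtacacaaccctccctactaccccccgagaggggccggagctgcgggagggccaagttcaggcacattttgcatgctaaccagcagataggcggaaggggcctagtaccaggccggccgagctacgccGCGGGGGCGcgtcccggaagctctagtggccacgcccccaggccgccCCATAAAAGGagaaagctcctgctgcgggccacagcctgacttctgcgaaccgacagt

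The search covered both strands for the cAMP response element TGACGTCA, its half-site TGACG, the AP-1 site TGANTCA, the EGR site GCGNGGGCG, the TATA box TATAAA and the CArG box, which SRF binds. A full cAMP response element also holds the half-site. The full element was found in 2 of 8 member promoters, in Btg2 from 166 to 159 bases and in Dusp1 from 143 to 136 bases before the start, and in 1.55% of all 32851 promoters of this length. The half-site was found in 6 of 8, including 2 copies in Fos, and in 17.8% of all promoters. Zfp36 held a CArG box from 58 to 49 bases before the start (1.47% of all promoters), and an EGR site was found in Btg2, Fosb and Zfp36 (4.7% of all promoters). Fos held a TATA box from 33 to 28 bases before the start (12.4% of all promoters), and an AP-1 site was found in 0 of 8 members (6.75% of all promoters). A match is a description of letters in these windows only, and longer-range elements were not searched.

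Values are intensities on the linear scale as deposited. A floor of 82.5 units, 0.1 times the mean array level, was applied before log2 values were taken, and signals under it are treated as not measured. Of the 10 genes, 7 were above the floor on all 12 arrays and were tested: Fos, Jun, Egr1, Atf3, Btg2, Dusp1 and Zfp36. The other 3 were below it on every array: Fosb, a second partner of Jun, at 4.28 to 4.33 units, Junb, a relative of Jun, at 4.18 to 4.87, and Ier2, a nuclear early response protein, at 4.64 to 4.84. A signal at this level does not show that a transcript was absent, because 4 of 39 ribosomal protein genes, including Rps16 and Rpl39, were also below the floor on all 12 arrays. Below-floor signal on every array was seen for 46.9% of all genes.

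The targeted genes matched the labels, with Hdac2 between 4442 and 5683 units on the 6 arrays that carry the gene and at most 4.32 on the other 6, and Hopx between 8577 and 12240.1 units where present and between 1656 and 2066 where deleted. The sources used here do not say whether their probe sets lie in the deleted parts. Cardiomyocyte markers were above the floor for 10 of 10 genes, and lung, thymus and neural markers for 0 of 3, 0 of 4 and 0 of the 2 represented. Xist, which is transcribed from the inactive X chromosome, was at 4988 units or more on 2 of 3 wild-type arrays and on 1 of 3 in each null genotype, so sex was not balanced. The ventricle is a mixture of cell types, and in such bulk RNA more responding cells and more RNA per cell cannot be told apart.

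The feature shared by all 7 measured genes was a single array. Hdac2-null 3 had the highest signal of the 12 arrays for 7 of 7 members, while it was highest for 6.3% of the 9667 tested genes. That array was singled out after its values were seen, and the 7 genes are known to respond together, so they are not 7 separate observations. The median deviation of the 7 members from their own 12-array medians was 0.74 log2 units on Hdac2-null 3 and lay between -0.15 and 0.20 on each of the other 11 arrays. The median over all tested genes was 0 on Hdac2-null 3 and between -0.008 and 0.02 on every array. The deposited arrays were already on nearly the same scale, so this median cannot show whether the sample had an overall shift.

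**Figure D1:**
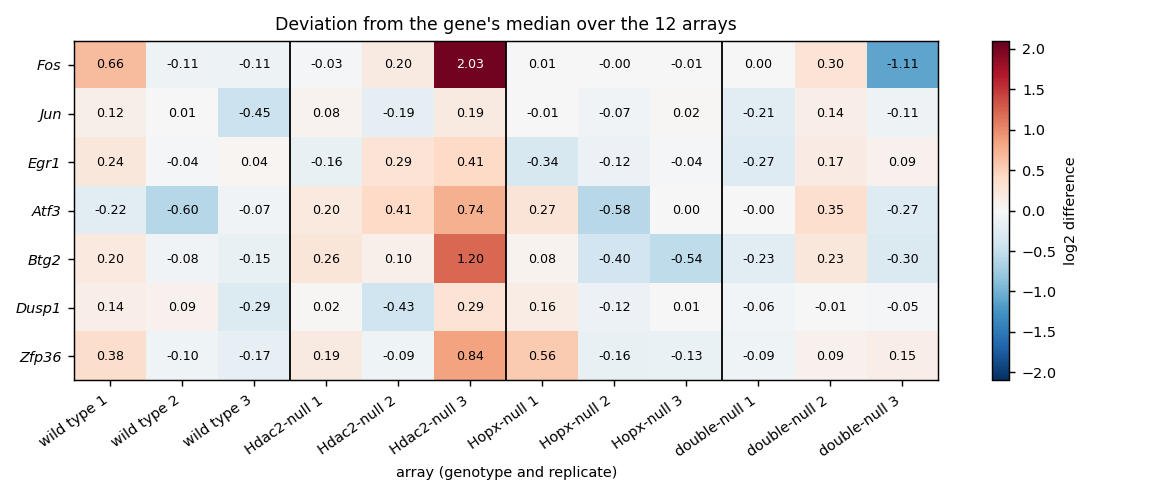
Deviation of each measured immediate early gene (rows) from its median over the 12 arrays, in log2 units, for each array (columns, separated by genotype). Every gene is at its highest on Hdac2-null 3, from 0.19 for Jun to 2.03 for Fos, and Fos is at its lowest, -1.11, on double-null 3.

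Fos, the inducible Jun partner in AP-1, had the widest range. Its wild-type signals were 619, 362 and 361.4 units. They were 382, 447 and 1596 in Hdac2-null, 394, 390.2 and 387 for Hopx-null, and 391, 479 and 181 for double-null ventricles. The 3 Hopx-null arrays were nearly identical, 2 of 3 Hdac2-null arrays lay within the wild-type range, and the third stood 2.58-fold above the next highest array, wild type 1. Hdac2-null 3 was 4.09-fold above the median of the other 11 arrays. The mean was 809 ± 683 (SD, n = 3) in Hdac2-null and 447.5 ± 149 (n = 3) in wild-type ventricles, a log2 difference of 0.58 (SE 0.51), which did not pass the test (limma adjusted p = 0.925). Without Hdac2-null 3 the difference turned to -0.07 (SE 0.37, adjusted p = 0.992 by limma).

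Jun, the partner of Fos in AP-1, varied far less. The brighter of its 2 probe sets measured 5591, 5178 and 3769.8 units in wild type, 5436, 4504 and 5859 in Hdac2-null, 5114, 4900.1 and 5215 on the Hopx-null arrays, and 4438, 5674 and 4759 on those of double-null ventricles. The groups overlapped, and the low value was wild type 3. The dimmer Jun probe set, at 194 to 461 units, also had its highest signal on Hdac2-null 3 and its lowest on wild type 3. The log2 difference between Hdac2-null and wild type was 0.13 (SE 0.15).

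Egr1, an early zinc finger factor of growth and stretch responses, measured 3447, 2839 and 3009.6 units in wild type and 2616, 3582 and 3889 in Hdac2-null ventricles. The Hopx-null signals were 2309.7, 2689.5 and 2834, and those of double-null ventricles 2424.5, 3278 and 3114. The Hopx-null arrays all lay below the wild-type arrays, and 2.58% of tested genes were lower without overlap in this comparison. The log2 difference was -0.25 (SE 0.16, limma adjusted p = 1), with a 95% interval from -0.60 to 0.10.

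Atf3, the stress-induced ATF factor, was the member with a separated Hdac2-null group. Its signals were 406, 311 and 450.3 units in wild type, 544, 629 and 792 in Hdac2-null, 569, 317 and 474 on the Hopx-null arrays, and 472, 604 and 391 on those of double-null ventricles. All 3 Hdac2-null arrays exceeded all 3 wild-type arrays, a pattern shown by 3.97% of tested genes, while the Hdac2-null and double-null groups overlapped. The mean was 655 ± 126 (SD, n = 3) against 389 ± 71 (n = 3), 1.68-fold (log2 0.75, SE 0.24, 95% interval 0.22 to 1.29). Its unadjusted p of 0.0104 in limma ranked 108 among 9667 genes, and the adjusted p was 0.893. Without Hdac2-null 3 the difference was 0.61 (SE 0.27, limma adjusted p = 0.831), so this gene differed from Fos in keeping most of its size when the array was left out.

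**Figure D2:**
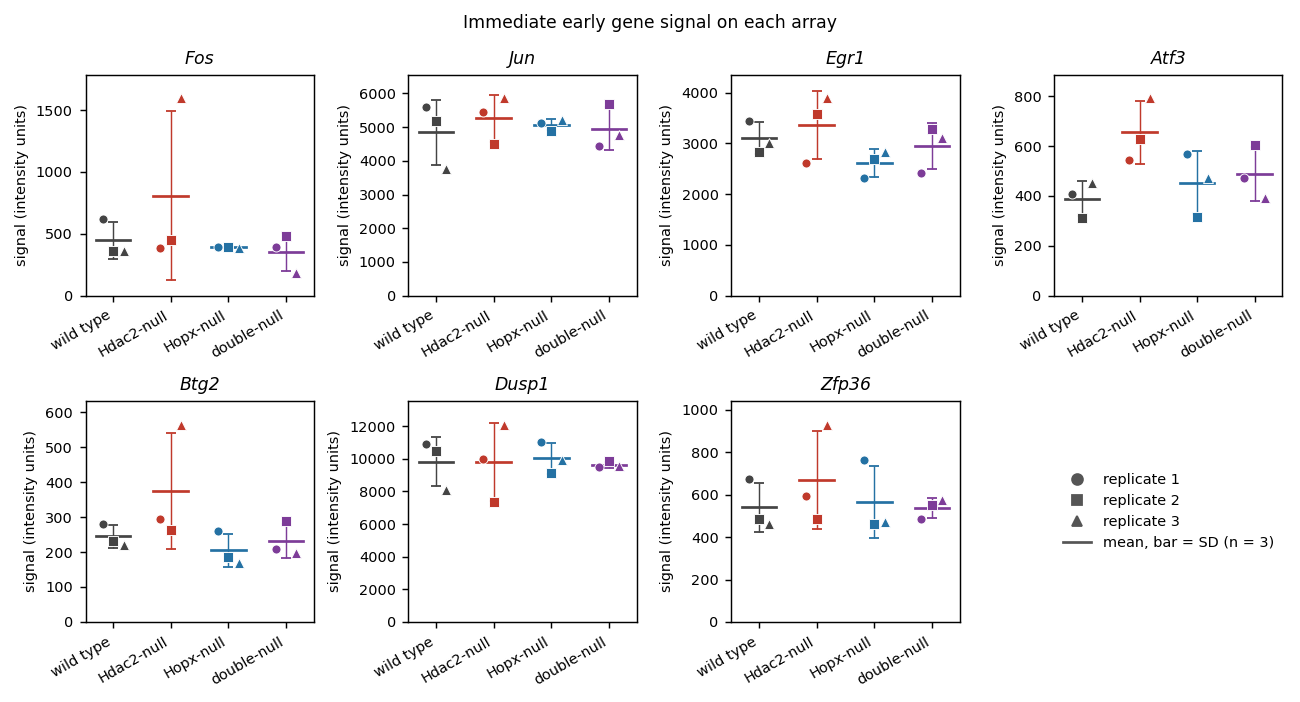
Signal in deposited intensity units (vertical axis, from 0) of the 7 measured immediate early genes in each genotype; points are single arrays with the replicate number as symbol, horizontal lines are group means and bars are SD (n = 3). The Hdac2-null replicate 3 triangle is the highest point in every panel, and only for Atf3 do all Hdac2-null arrays exceed all wild-type arrays.

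Among the genes that close the response, Btg2 followed Fos. Its brighter probe set measured 281.5, 232 and 221 units in wild type, 293, 263 and 565 in Hdac2-null, 259, 186 and 169 on the Hopx-null arrays, and 209, 288 and 199 on those of double-null ventricles. The value on Hdac2-null 3 was 1.93-fold above the next highest array, Hdac2-null 1. A second probe set was below the floor on all arrays and is not ranked. The log2 difference of Hdac2-null from wild type was 0.53 (SE 0.28, limma adjusted p = 0.925), and 0.19 (SE 0.22) without Hdac2-null 3.

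Zfp36 measured 672, 485 and 460.4 units in wild type, 591.5, 485 and 930.1 in Hdac2-null, 762, 463 and 472.5 on the Hopx-null arrays, and 486, 553 and 574 on those of double-null ventricles. The highest arrays were Hdac2-null 3, Hopx-null 1 and wild type 1, each in a different genotype, and the groups overlapped. The log2 difference between Hdac2-null and wild type was 0.28 (SE 0.26), and 0.01 (SE 0.24) without Hdac2-null 3.

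Dusp1, the MAP kinase phosphatase, gave the strongest signal of the members, although signals of different probe sets do not rank transcripts. It measured 10889, 10485 and 8086 units in wild type, 10012.5, 7351 and 12097 in Hdac2-null, 11032.5, 9121 and 9925 on the Hopx-null arrays, and 9496, 9834 and 9563 on those of double-null ventricles. Its lowest and highest arrays were both Hdac2-null, replicates 2 and 3. The group means of Hdac2-null and wild type were equal at 9820.2 and 9820.1 units, with SDs of 2379 and 1515 (n = 3 each).

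By genotype, no member passed the test at an adjusted p under 0.05. In Hdac2-null against wild type 0 of 7 members were called, where 0.0207% of tested genes were, and 1 of 7 (Atf3) had an unadjusted p under 0.05 in limma, where 5.11% of tested genes did. Members were higher in 6 of 7 cases (median log2 0.28), against 44.1% of all tested genes (median -0.01), and only Atf3 was higher without overlap. Without Hdac2-null 3 members were higher in 4 of 7 (median 0.01), against 43.4% of tested genes. In Hopx-null against the same wild-type arrays 4 of 7 were higher (median 0.04, against 48.3% of tested genes), and 0 were called (0.0103% of tested genes) or had an unadjusted p under 0.05 (2.65% of tested genes) in limma. In double-null against wild type 3 of 7 were higher (median -0.02, against 44.9% of tested genes), with 0 called (0.031% of tested genes) and 0 at an unadjusted p under 0.05 (7.31% of tested genes) in limma. These 3 comparisons share the wild-type arrays.

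The factorial design allows the 6 arrays without Hdac2 to be set against the 6 with it. The members were higher in 6 of 7 (median 0.13, against 44.7% of tested genes), with 0 called (0.0207% of tested genes) and 1 at an unadjusted p under 0.05 (8.96% of tested genes) in limma. That gene was Atf3 (log2 0.44, SE 0.17, limma adjusted p = 0.529), and 0.37 (SE 0.18) without Hdac2-null 3. Fos measured 0.16 (SE 0.36), and -0.17 (SE 0.25) without that array. The count of higher members fell to 4 of 7 without it (median 0.004, against 44.8% of tested genes). In double-null against Hdac2-null 1 of 7 was higher and 6 were lower (median -0.26, against 47.7% of tested genes higher), with 0 called (0.0103% of tested genes) and 1 at an unadjusted p under 0.05 (11.3% of tested genes) in limma. That gene was Btg2, at -0.62 (SE 0.28, limma adjusted p = 0.43), and -0.28 (SE 0.22) without Hdac2-null 3. With that array left out, 2 of 7 members were higher and 5 lower (median -0.07, against 50.1% of tested genes higher). In double-null against Hopx-null 3 of 7 were higher (47% of tested genes), with 0 called (0.0207% of tested genes) and 0 at an unadjusted p under 0.05 (8.13% of tested genes) in limma. For the interaction, which measures whether the 2 losses add on the log2 scale, 1 of 7 was above 0 (51.3% of tested genes). There were 0 calls among the members (0% of tested genes), and limma gave 0 of them an unadjusted p under 0.05 (4.18% of tested genes). The median interaction of the members was -0.31. It was -0.05 when Hdac2-null 3 was left out, with 2 of 7 above 0 (52% of tested genes).

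**Figure D3:**
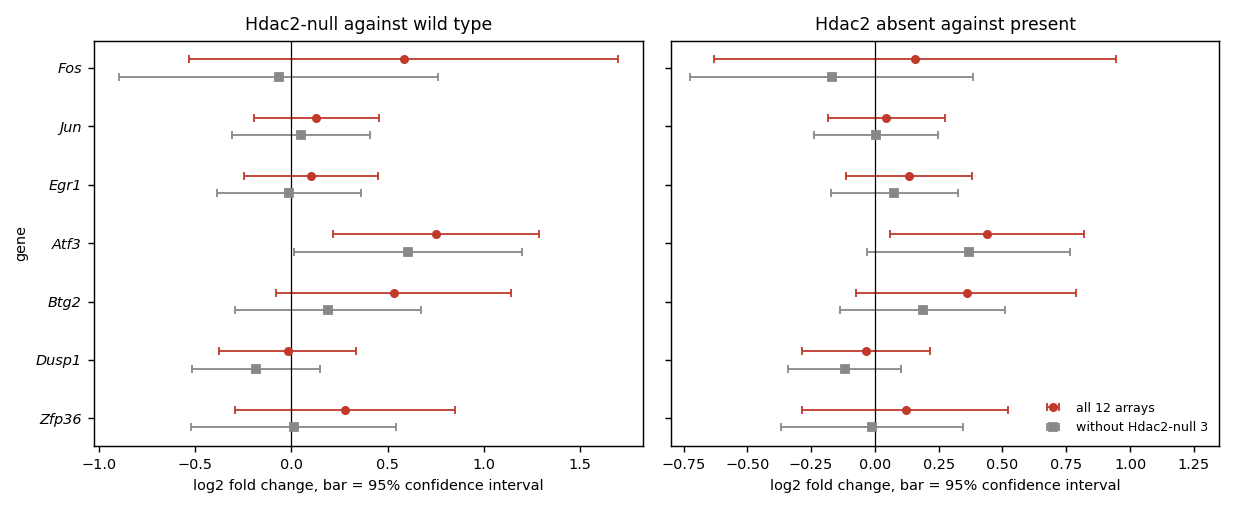
Log2 fold change with its 95% confidence interval (horizontal axis) of the 7 measured immediate early genes (vertical axis) for Hdac2-null against wild type (left) and for the 6 arrays without against the 6 with Hdac2 (right), from the fit with all 12 arrays (red circles) and without Hdac2-null 3 (grey squares). The Fos estimate moves across 0 in both panels when the array is left out, and the Atf3 estimate stays above 0. In the right panel the Atf3 interval without the array runs from -0.03 to 0.77.

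The spread within genotypes was large for these genes. The pooled within-genotype SD was 0.71 log2 units for Fos, larger than in 99% of tested genes, 0.38 for Btg2, 0.35 for Zfp36 and 0.33 for Atf3, and between 0.20 and 0.23 for Jun, Egr1 and Dusp1, where the median of all tested genes was 0.14. Without Hdac2-null 3 the SD of Fos was 0.47 and that of Btg2 0.26. Genotype accounted for 51.2% of the variation of Atf3 between arrays, 48.2% for Btg2, 34.2% for Egr1, 28.5% for Fos, 13.2% for Zfp36, 7.98% for Jun and 1.43% for Dusp1, where the median of all tested genes was 28.9%. In limma's F test for any difference among the 4 genotypes 0 of 7 members were called (0.031% of tested genes) and 0 had an unadjusted p under 0.05 (7.97% of tested genes). The smallest adjusted p, that of Atf3, was 0.623.

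Most pairs of members varied in the same direction from array to array, in part through Hdac2-null 3. Of 21 pairs among the 7 genes, 20 had a Pearson r above 0 over the 12 arrays (median 0.53, range -0.03 to 0.83), and 21 of 21 did when each array was taken as its deviation from the genotype mean (median 0.57). Without Hdac2-null 3 there were 18 of 21 above 0 and the median r was 0.26. The closest pair was then Jun and Dusp1 (r = 0.72), and the farthest Egr1 and Dusp1 (r = -0.41). All pairs share the same arrays and their normalisation, and no r over pairs of all tested genes was computed to set beside these values.

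**Figure D4:**
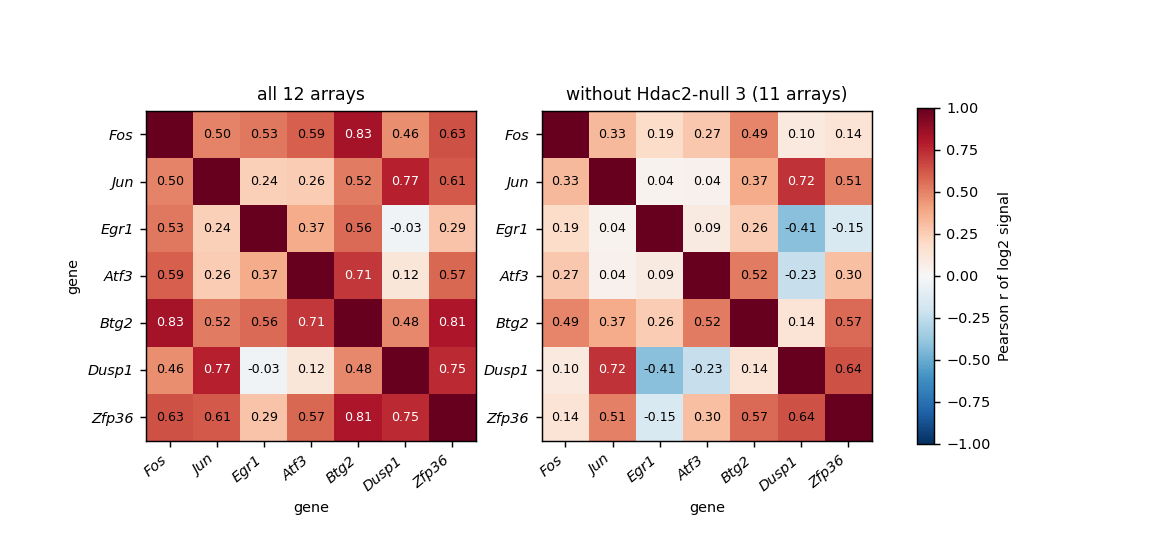
Pearson r of log2 signal between each pair of the 7 measured immediate early genes, over all 12 arrays (left) and over the 11 arrays without Hdac2-null 3 (right). The median r falls from 0.53 to 0.26, and Jun with Dusp1 is the closest pair in the right panel at 0.72.

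Fos was tested against each of the other 6 measured members, a family of 6 relations. Btg2 passed (r = 0.83, permutation p = 0.00569, adjusted p = 0.0341; rho = 0.59, permutation p = 0.0484, adjusted p = 0.111). Leaving out the 2 arrays farthest from the Fos median, Hdac2-null 3 and double-null 3, gave r = 0.50 (permutation test, adjusted p = 0.258), and leaving out Hdac2-null 3 alone gave 0.49, so the size of the relation rests on Hdac2-null 3. Taken as deviations from the genotype means, with Hdac2-null 3 included, Btg2 and Fos had r = 0.83 and rho = 0.82. No p is given for these, because deviations cancel within each genotype and are not freely exchangeable between arrays. Zfp36 had r = 0.63 and rho = 0.54 (permutation p = 0.0356 and 0.0742), and Atf3 r = 0.59 and rho = 0.62 (permutation p = 0.0392 and 0.0342), with adjusted p of 0.0784 for r in both and 0.111 for rho in both. Egr1 had r = 0.53 and rho = 0.41 (permutation p = 0.069 and 0.184, adjusted p = 0.103 and 0.221), Jun r = 0.50 and rho = 0.55 (permutation p = 0.104 and 0.066, adjusted p = 0.125 and 0.111), and Dusp1 r = 0.46 and rho = 0.37 (permutation p = 0.135 and 0.237, adjusted p = 0.135 and 0.237). Without the 2 arrays, r was 0.46 for Zfp36, 0.17 for Atf3, 0.64 for Egr1, 0.46 for Jun and 0.19 for Dusp1. Without Hdac2-null 3 alone, r was 0.135 for Zfp36, 0.27 for Atf3, 0.19 for Egr1, 0.33 for Jun and 0.10 for Dusp1. The adjusted p of each was then 0.74 (permutation test).

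The 8 tested genes most like Fos by Pearson r over the 12 arrays were Usp4 (0.88), Zfp729a (0.85), Hlx (0.85), Mcrip2 (0.85), Mcee (0.84), Btg2 (0.83), Zc3h18 (0.83) and Sap30 (0.82). Usp4 encodes a ubiquitin-specific protease, Hlx a homeobox factor, Mcee an enzyme of propionate metabolism and Sap30 a subunit of the Sin3 histone deacetylase complex. Btg2 ranked 6 of 9666 genes in this order, and the other members lay at rank 166 (Zfp36), 237 (Atf3), 395 (Egr1), 512 (Jun) and 683 (Dusp1). Fos is far above its other values on Hdac2-null 3, and the genes differed in how far their likeness to Fos rested on that array. Without Hdac2-null 3 r was 0.44 for Hlx, 0.49 for Btg2, 0.53 for Zfp729a and 0.54 for Zc3h18. It was 0.70 for Sap30, 0.76 for Usp4, 0.80 for Mcee and 0.88 for Mcrip2. These last r values were not computed without double-null 3 as well, where Fos was -1.11 log2 units from its median. How far they rest on double-null 3 was not tested. Zfp729a and Hlx were above the floor on only 2 and 7 of 12 arrays, so their ranks are set by few arrays.

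Other genes of the response were read from lists chosen by function. Of 34 tested members of a list of other immediate early genes, 20 were higher and 13 lower in Hdac2-null than in wild-type ventricles (median log2 0.04, against -0.01 for all genes), with 0 calls in limma and 1 unadjusted p under 0.05 (5.11% of tested genes). Without Hdac2-null 3 the count of higher genes was 12. Hdac2-null 3 was the highest array for 9 of the 34, where it was for 6.3% of tested genes, and wild type 1 was also highest for 9 of the 34 (17.7% of tested genes). The 3 of these genes farthest above the other arrays' median on Hdac2-null 3 were Gadd45g, Ccn1 and Id1. Gadd45g, a stress sensor, measured 1268 units against 764, and Ccn1, a matricellular early gene, 1479 against 909.6. Id1, an inhibitor of bHLH factors, measured 158 against 100.4, the latter near the floor of 82.5. The rise was not shared by the whole list. On that array the 34 genes lay between 0.72-fold (Id2) and 1.66-fold (Gadd45g) of the other arrays' median. Their median was 1.028-fold, and 22 of the 34 were above the other arrays' median. The 3 genes of the list with the smallest p in Hdac2-null against wild type were Fosl2, a Fos relative (log2 0.28, SE 0.10), Egr2 (-0.55, SE 0.27) and Id3 (0.29, SE 0.14), and none passed (limma adjusted p = 0.893, 0.925 and 0.925).

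Of 18 tested kinases and factors upstream of these genes, 9 were higher and 9 lower (median 0), and 0 were called. The smallest p belonged to the MAP kinase kinase Map2k1 (log2 -0.16, SE 0.06), the kinase Braf (0.45, SE 0.22) and the stress kinase Mapk8 (0.13, SE 0.08), with limma adjusted p of 0.893, 0.925 and 0.925. Of 14 tested heat shock genes, a separate arm of the stress response, 7 were higher and 7 lower in Hdac2-null than in wild-type ventricles (median 0.00), with 0 called. Hdac2-null 3 was the highest array for 0 of 14, a count near the 6.3% share of all tested genes. On that array 9 of the 14 were above the median of the other arrays, as were 22 of the 34 other immediate early genes and 49.9% of all tested genes, and they lay between 0.71-fold (Hspa1b, an inducible chaperone) and 1.11-fold (Hsph1) of it. With Hspa1b (log2 -0.33, SE 0.23), the smallest p in this list belonged to Hspa4l (-0.23, SE 0.12) and Hspa1l (-0.19, SE 0.13), each with a limma adjusted p of 0.925.

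Integrated stress response genes, of which Atf4 is the central factor, were lower in 7 of 9 (median -0.09), with 0 called, in a comparison where 44.1% of all tested genes were higher and the rest not. Ddit4, an inhibitor of mTOR signalling, measured -0.25 (SE 0.08, limma adjusted p = 0.893) in Hdac2-null ventricles and -0.31 (SE 0.06, limma adjusted p = 0.182) over the 6 arrays without Hdac2. Asns and Xbp1 followed at -0.09 (SE 0.08) and -0.11 (SE 0.11). Of 8 tested AP-1 and EGR partner genes, 3 were higher and 5 lower (median -0.01) and 0 were called, and the smallest p belonged to Jdp2, a repressor that pairs with Jun (-0.42, SE 0.16, limma adjusted p = 0.901), Mafg (0.17, SE 0.12) and Atf7 (-0.41, SE 0.30). Of 5 tested delayed targets 3 were higher (median 0.01) and 0 were called. Timp1, an inhibitor of matrix proteases, measured 0.53 (SE 0.15, limma adjusted p = 0.891), and Thbs1 and Hmox1 -0.11 (SE 0.18) and 0.08 (SE 0.18).

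Other values differed on Hdac2-null 3 or across the Hdac2-null group. It was the only array with Alb above the floor (176 units against at most 4.59 elsewhere), and Afp was at 205 and Ttr at 188, so 3 of 4 liver markers were above the floor, with Apoa1 below it on every array. The summed liver signal was 580 units on Hdac2-null 3. The next highest sum, 151 units, was on Hdac2-null 2, where Ttr alone was above the floor (109.6 units), and Hdac2-null 1 was at 56.9. The sum reached at most 43.5 on a wild-type, 119 on a Hopx-null and 61.3 on a double-null array. Smooth muscle and pericyte markers, 6 of 6 above the floor, summed to 34141 units on Hdac2-null 3, the highest of the Hdac2-null arrays, against 25441 to 30810.2 in wild type, and to at least 30874 on every Hdac2-null array. Macrophage and leukocyte markers summed to 6215 to 6495 units in Hdac2-null and 7293 to 8417 in wild-type ventricles, with 4 of 8 above the floor and Cd68, Ptprc, Adgre1 and C1qa below it on every array. Fibroblast markers, 8 of 8 above the floor, summed to 69144 to 71468 units in Hdac2-null and 72689 to 75971 in wild-type ventricles. Erythroid markers, 3 of the 5 represented above the floor, summed to 557 to 1614 and 235 to 476 units, with Hba-x and Hbb-bh1 below the floor on every array. These 4 lists and the liver list did not overlap between Hdac2-null and wild type, while the cardiomyocyte, atrial, endothelial and epicardial lists did. For liver this rests in part on values not measured, since every liver marker was below the floor on Hdac2-null 1 and in wild type. The smooth muscle margin was small, with 30810 and 30749 units on wild type 2 and 3 against 30942 and 30874 on Hdac2-null 1 and 2. Of single tested genes 3.97% were higher without overlap in this comparison, and no such share was computed for sums. Each sum is weighted to the brightest genes of its list. Double-null sums were 30171 to 33191 units for smooth muscle and 6085 to 6919 for macrophage markers. They were 71079 to 75813 for fibroblast and 197 to 246 for erythroid markers. The part of these cell types in the peak on Hdac2-null 3, or in the higher Atf3 of the Hdac2-null group, was not tested.

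RNA integrity was read from the 3′ to 5′ signal ratios of 2 control transcripts. On Hdac2-null 3 the log2 ratio was 2.786 for beta-actin (2.635 to 2.795 over all arrays) and 0.93 for Gapdh (0.84 to 1.33), and Xist was below the floor there. Against Fos over the 12 arrays, a family of 3 relations, r was -0.03 for the beta-actin ratio, -0.02 for the Gapdh ratio and -0.05 for Xist (permutation p = 0.927, 0.949 and 0.845, adjusted p = 0.949 for all). The rho values were -0.57, -0.04 and -0.08 (permutation p = 0.0571, 0.905 and 0.815, adjusted p = 0.171, 0.905 and 0.905). Without the 2 arrays farthest from the median of each measure, r was 0.03, -0.46 and 0.03.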

How the data were processed

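The authors deposited 1 linear intensity per probe set and array for 45101 probe sets, and MAS5 is named, without a version, per the submitters' processing notes. Of the deposited values 48.6% lay within 1 unit of 4.5 and upper quartiles ran only from 559 to 587, a shape that no source used here explains, so no further normalisation was applied. By the platform's annotation, 34945 probe sets had 1 gene, 932 had several and 9160 had no gene, and 64 control probe sets served for RNA quality. Symbols were updated by gene ID through RefSeq (GRCm38.p6), which matched 34741. Each gene was represented by its brightest probe set by mean log2 signal. The floor was 82.5 units (0.1 times the arrays' average 2% trimmed mean), and lower signals were set to it, which shrinks the fold changes of dim genes. Genes under the 40th percentile (4.76 units) or at the floor on all arrays were left out, and 9667 were tested.

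A means model of the 4 genotypes was fitted to the 12 arrays together (limma 3.58.1, R 4.3.3, intensity trend, 8 residual degrees of freedom), with Benjamini-Hochberg adjustment over all tested genes in each comparison. The fit and the correlations were tested on simulated data. Correlations used 100000 permutations, two-sided. The members and lists were chosen with earlier results of these data known. Named genes were all members, the targeted genes, the 8 genes most correlated with Fos and, from each list, called genes or the 3 with the smallest p in Hdac2-null against wild type. Genes named because of their signal on Hdac2-null 3, such as Alb, Ccn1 and Hsph1, were picked with those values in view. The labels call the replicates biological, and their number, 3 per group, limits the precision. Same-numbered arrays deviated together in every pair for wild type and Hopx-null (r of 0.42, 0.42 and 0.15) and for Hdac2-null and Hopx-null (0.21, 0.17 and 0.12), every r being above 0.1. The correlations of Hdac2-null with double-null were 0.25, 0.096 and 0.25, and the other pairs of groups held at least 1 value below 0. They were 0.33, -0.25 and -0.15 for wild type with Hdac2-null, and 0.12, -0.25 and 0.05 for wild type with double-null. For Hopx-null with double-null they were 0.29, -0.115 and 0.22. Arrays of different number were not compared. The labels name nothing that a number shares.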

Additional observations from a re-analysis of the deposited data

How the results depend on the processing

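With each of the 12 arrays left out in turn, and under the other alternatives run, 0 of the 7 immediate early genes were called in each of the 7 comparisons. The fit on only the groups compared was run for 5 comparisons, not for the interaction or for the arrays without against with Hdac2. The smallest adjusted p of a member in any of them was 0.24 (Atf3 in double-null against wild type, limma with array weights). Atf3 kept its direction in the alternatives run, with log2 0.60 to 0.88 in Hdac2-null against wild type when single arrays were left out. Fold changes of members changed sign in 31 cases and kept it in 305 when a single array was left out, and in 12 against 317 under the other settings, and the cause was not tested.

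When single arrays were left out, Fos ranged from -0.066 to 0.966 in Hdac2-null, -0.278 to 0.11 in Hopx-null and -0.703 to 6.53e-05 in double-null ventricles against wild type, and from -0.169 to 0.366 without against with Hdac2. In the same order Jun ranged from -0.040 to 0.245, -0.085 to 0.20, -0.126 to 0.158 and -0.041 to 0.101, and Dusp1 from -0.183 to 0.177, -0.096 to 0.118, -0.15 to 0.065 and -0.118 to 0.061. Egr1 ranged from -0.013 to 0.273 in Hdac2-null and -0.169 to 0.049 for double-null, Btg2 from -0.257 to 0.016 for double-null, and Zfp36 from -0.184 to 0.22 for Hopx-null, -0.091 to 0.182 for double-null and -0.013 to 0.237 without against with Hdac2. Median centring gave Dusp1 0.0011 in Hdac2-null and 0.0097 for double-null, and Xist as a term gave 0.039 and 0.040. With array weights Dusp1 was 0.049 in Hdac2-null, 0.035 for double-null and 0.0115 without against with Hdac2, Egr1 was -0.0088 in Hdac2-null and 0.069 for double-null, Fos 0.00071 for Hopx-null and 0.144 for double-null, and Btg2 0.195 for double-null. The relation of Btg2 to Fos was 0.49 (permutation test, adjusted p = 0.717) without Hdac2-null 3, an alternative chosen after seeing the data, and 0.50 without the 2 arrays farthest from the Fos median.

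Counts of all genes called moved more. With array weights 951 genes were called in double-null against Hdac2-null, against 1 without them, and 5 without against with Hdac2. Without the floor, or with log2 of the intensity plus 16, 1 gene was called in Hdac2-null against wild type, 2 in double-null against Hdac2-null and 1 in double-null against Hopx-null, and testing every probe set gave 2 in double-null against Hdac2-null. In double-null against Hopx-null 1 gene was called with the replicate number as a block, with the floor at 0.5 times its value or with only the groups compared. When single arrays were left out, 2 to 4 genes were called in Hdac2-null, 2 to 8 in double-null against wild type, 1 to 3 in double-null against Hopx-null, 0 to 1 for the interaction and 2 to 27 without against with Hdac2. The counts of 4, 8 and 27, and the 1 gene of the interaction, came without wild type 3, and leaving out Hopx-null 3 gave 4 without against with Hdac2. In double-null against Hopx-null the count fell from 2 to 1 without wild type 1 or 2, Hdac2-null 2, Hopx-null 2 or 3, or double-null 2 or 3. The replicate block changed no call of a member. Leaving out the percentile filter gave the same 9667 genes.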
